A study of Equus caballus with 10 samples.

Results

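The family of miR-103 and miR-107 was examined in the small RNA captured through 5-ethynyl uridine (5-EU) in horse joint cells that had taken up extracellular vesicles (EVs) from the other joint cell type. Its members are the rows eca-miR-103, eca-miR-107a and eca-miR-107b, 3 of the 239 miRNA rows in the deposited tables, chosen by name and counted in 10 libraries. The EV-recipient synoviocyte group held cultures from 4 horses, kept at 25% oxygen, and these were given a pool of labelled EVs made by chondrocytes from 8 donor horses. The EV-recipient chondrocyte group held cultures from 5 horses, kept at 5% oxygen, and these were given a pool of labelled EVs made by synoviocytes from 9 donor horses. The cells were primary cultures from abattoir limbs of horses below an age limit and with low macroscopic joint scores. Donor cells were labelled over 48 h and recipients were exposed to EVs for 24 h. The 10th library is titled as a synoviocyte but carries the group entry SynoviocyteNEG in the deposited tables. The study's methods describe a control synoviocyte culture that received EVs from donor cells grown without the label. The study's figure legend gives SynoviocyteNEG as that control, but the sample labels do not, so the library entered no comparison and its values stand beside the others.

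Cells that are fed 5-EU, an analogue of uridine, carry it in the RNA they make, so capture through it in recipients is meant to recover what the EVs delivered. The libraries of a group came from different recipient horses and shared a single EV pool, so p-values measure the spread between recipient libraries only. That spread holds differences between horses together with those of capture, library preparation and depth. The study also reports more EVs per volume of medium for EV-recipient synoviocytes than for EV-recipient chondrocytes. The recipient cell type, the EV source, the EV dose and the oxygen level changed together and cannot be told apart. In captured RNA, fewer cells taking up EVs and less RNA per cell cannot be told apart either. Total miRNA counts ran between 17151 and 436475 in EV-recipient synoviocytes and between 4891 and 444408 in EV-recipient chondrocytes, and were 20330 in the SynoviocyteNEG library. EV-recipient chondrocyte replicate 1 was the shallowest, and a count of 3, taken as the floor, stood for 613 RPM (counts scaled to the miRNA total of the library) there. Intervals and floors cover counting error only, since PCR copies were not told apart by molecular identifiers. Both arms of miR-140, the miRNA known from cartilage, summed to between 0 and 182 RPM in EV-recipient synoviocytes, whose EVs came from chondrocytes. They summed to between 204 and 3805 RPM in EV-recipient chondrocytes, whose EVs came from synoviocytes, and to 787 RPM in the SynoviocyteNEG library. Among the labelled libraries the sums were thus higher where chondrocytes were the recipients, not where they were the EV source. The lowest EV-recipient chondrocyte sum, 204 RPM, was that of replicate 1 and lay below its floor of 613 RPM. The gap to the EV-recipient synoviocytes is therefore not resolved for that library. The SynoviocyteNEG library lay within the EV-recipient chondrocyte range. The reason for this and its part in the results below were not tested. The 5 listed mesenchymal miRNAs, which include the abundant eca-miR-21, summed to between 317887 and 493006 RPM in EV-recipient synoviocytes and between 186374 and 296883 RPM in EV-recipient chondrocytes, without overlap, and to 206149 RPM in the SynoviocyteNEG library. As RPM are shares, the part of this difference in the values of other miRNAs was not tested. Most of the sum was eca-miR-21, which averaged 326574 RPM in EV-recipient synoviocytes and 216272 RPM in EV-recipient chondrocytes. Not every listed member went that way. eca-miR-143 and eca-miR-214 also had higher means in EV-recipient synoviocytes, but eca-miR-199a-5p averaged 9863 RPM there and 16363 RPM in EV-recipient chondrocytes, without overlap. The direction of eca-miR-145, the remaining listed member, is not given here. The 5 blood cell miRNAs in the table summed to between 55 and 17025 RPM in EV-recipient synoviocytes and between 45.7 and 3679 RPM in EV-recipient chondrocytes.

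miR-103 and miR-107 are paralogues found across vertebrates, encoded within introns of the pantothenate kinase (PANK) genes. Their mature strands in mammals differ near the 3′ end and share the 5′ seed, the stretch that pairs with target mRNAs, so they are expected to act on the same targets. In human cells they are known to repress DICER1, the enzyme that cuts miRNA precursors, and in mice they are known to act on caveolin-1 and insulin sensitivity. Mature miRNAs this similar are hard to tell apart in sequencing, because a read with an allowed mismatch, or one that has lost its 3′ end, can match more than one entry. The authors matched reads to horse miRBase entries with 1 mismatch. No file used here holds the horse sequences, so none is printed.

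The counts of eca-miR-103 and eca-miR-107a were nearly the same number in every library. In EV-recipient synoviocytes, eca-miR-103 had 8571, 5143, 853 and 317 counts in replicates 1 to 4, and eca-miR-107a had 8051, 4757, 847 and 316. In EV-recipient chondrocytes, eca-miR-103 had 19, 10599, 968, 9476 and 1381 counts in replicates 1 to 5, and eca-miR-107a had 19, 10201, 941, 8989 and 1359. In the SynoviocyteNEG library the counts were 558 and 524. eca-miR-103 was the higher row in 9 of 10 libraries and tied in the shallowest. The gap, as a share of the higher count, was 6.07, 7.51, 0.703 and 0.315% in EV-recipient synoviocytes. It was 0, 3.76, 2.79, 5.14 and 1.59% in EV-recipient chondrocytes and 6.09% in the SynoviocyteNEG library.

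Separate molecules counted independently would scatter by about the square root of their summed count. In 5 of 10 libraries the eca-miR-103 and eca-miR-107a counts lay closer than that, which independent counts of equal level would also do in many libraries, so the nearness to the counting scatter does not by itself tell shared reads from separate ones. EV-recipient synoviocyte replicate 4, for example, had a gap of 1 count where the square root of the sum was 25.2, and replicate 3 had a gap of 6 against 41.2. The gap was clearest in deep libraries, at 520 against 129 in EV-recipient synoviocyte replicate 1. Of the 1176 pairs among the 49 miRNAs abundant enough to be tested, only 1 other pair, the 3p arms eca-miR-199b-3p and eca-miR-199a-3p, was as close in every library, with a largest gap of 1.69%. The next nearest pair differed by up to 26.8%.

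**Figure D1:**
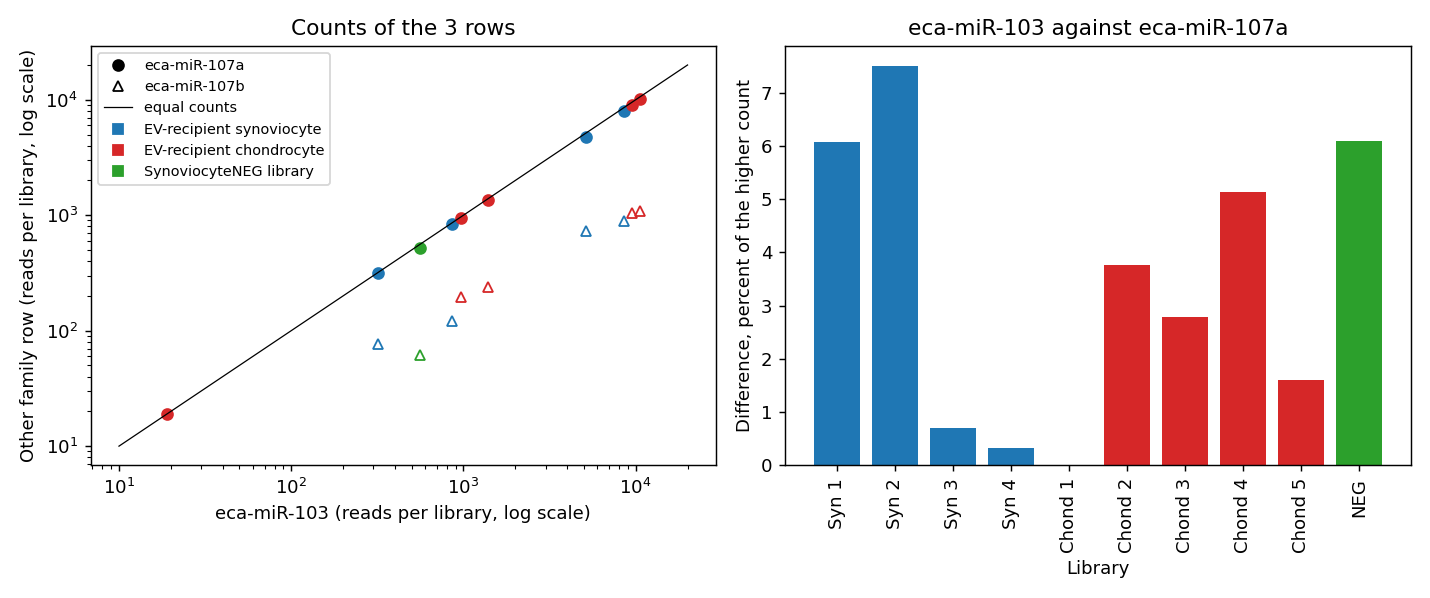
Left, reads per library for eca-miR-107a (filled circles) and eca-miR-107b (open triangles) against eca-miR-103, both axes on a log scale, with the line of equal counts; the eca-miR-107b count of 0 in EV-recipient chondrocyte replicate 1 cannot be drawn. Right, the gap between eca-miR-103 and eca-miR-107a as a percent of the higher count in each library (Syn, EV-recipient synoviocyte; Chond, EV-recipient chondrocyte; NEG, SynoviocyteNEG). The circles lie on the line and the bars stay at or under 7.51%.

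These tables bound the number of shared reads but do not measure it. If every read of the lower rows was also counted in the highest row, the family held as many reads as eca-miR-103. If no read was shared, it held the sum of the 3 rows. The family therefore made up between 1.96 and 4.01% of miRNA counts in EV-recipient synoviocyte replicate 1, between 2.67 and 5.53% in replicate 2, between 2.64 and 5.65% in replicate 3 and between 1.85 and 4.13% in replicate 4. In EV-recipient chondrocytes the bounds were 0.388 and 0.777% in replicate 1, 2.38 and 4.93% in replicate 2, 2.44 and 5.30% in replicate 3, 3.33 and 6.85% in replicate 4, and 1.40 and 3.02% in replicate 5. The upper bound was 2.00 to 2.24 times the lower in the 10 libraries. Reads counted more than once would also enter the miRNA total, where they could make up at most 3.52% of a library.

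eca-miR-107b stood well below the other 2 rows. Its counts were 891, 726, 122 and 76 in EV-recipient synoviocytes, 0, 1092, 194, 1035 and 238 in EV-recipient chondrocytes and 61 in the SynoviocyteNEG library. All of these reads could also be part of the eca-miR-103 count. As a percent of that count, eca-miR-107b was at 10.4, 14.1, 14.3 and 24.0% in EV-recipient synoviocytes. In EV-recipient chondrocytes it was at 0, 10.3, 20.0, 10.9 and 17.2%, and in the SynoviocyteNEG library at 10.9%. The 3 deepest libraries lay between 10.3 and 10.9%, while the 2 highest values, 24.0 and 20.0%, came from libraries with 17151 and 39689 miRNA counts. Other shallow libraries were lower. The SynoviocyteNEG library, with 20330 miRNA counts, was at 10.9%, and EV-recipient synoviocyte replicate 3, with 32269, was at 14.3%. The 0 in EV-recipient chondrocyte replicate 1 is set against only 19 counts of eca-miR-103, and a floor of 3 counts would be 15.8% of them. Exact intervals that treat the rows as independent counts spanned 9.69 to 11.1% for EV-recipient synoviocyte replicate 1 and 18.4 to 30.9% for replicate 4, which do not overlap.

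The proportion of eca-miR-107b to eca-miR-103 needs no scaling to a library total, and it was compared between groups on its own. The log2 ratio, with 0.5 counts added to each row, averaged -2.74 ± 0.50 in EV-recipient synoviocytes (SD, n = 4) and -3.32 ± 1.17 in EV-recipient chondrocytes (SD, n = 5). The difference of 0.59 was within the spread between libraries (exact permutation test over 126 splits, two-sided, p = 0.476, adjusted p = 0.667 over the 2 permutation tests run). With 1 count added in place of 0.5 the difference was 0.40, and without EV-recipient chondrocyte replicate 1, whose value is set by its depth and the added count, it was 0.09 (exact permutation p = 0.857).

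The level of the family was high and similar in most libraries. eca-miR-103 was at 19637, 26747, 26434 and 18483 RPM in EV-recipient synoviocytes. It was at 3883, 23850, 24390, 33276 and 14005 RPM in EV-recipient chondrocytes and at 27447 RPM in the SynoviocyteNEG library. The EV-recipient synoviocyte values all lay within the range of the EV-recipient chondrocyte values, and so did that of the SynoviocyteNEG library. Ranked by count within a library, eca-miR-103 was 7th to 10th of the 239 miRNAs in EV-recipient synoviocytes. In EV-recipient chondrocyte replicates 1 to 5 its ranks were 32, 10, 9, 8 and 19, and in the SynoviocyteNEG library it was 8th.

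Both ends of the range were EV-recipient chondrocyte libraries. Replicate 1 stood lowest at 3883 RPM, with a 95% Wilson interval of 2488 to 6060 RPM from its 19 counts. Replicate 4 stood highest at 33276 RPM (interval 32623 to 33941 RPM). These intervals do not overlap, but they take each read as an independent count and leave PCR copies aside. Replicate 1 is also the library with the fewest miRNA counts and the most spike-in counts. The part of its depth in this value was not tested. The coefficient of variation of eca-miR-103 was 19.2% in EV-recipient synoviocytes and 56.6% in EV-recipient chondrocytes, or 33.0% without replicate 1.

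**Figure D2:**
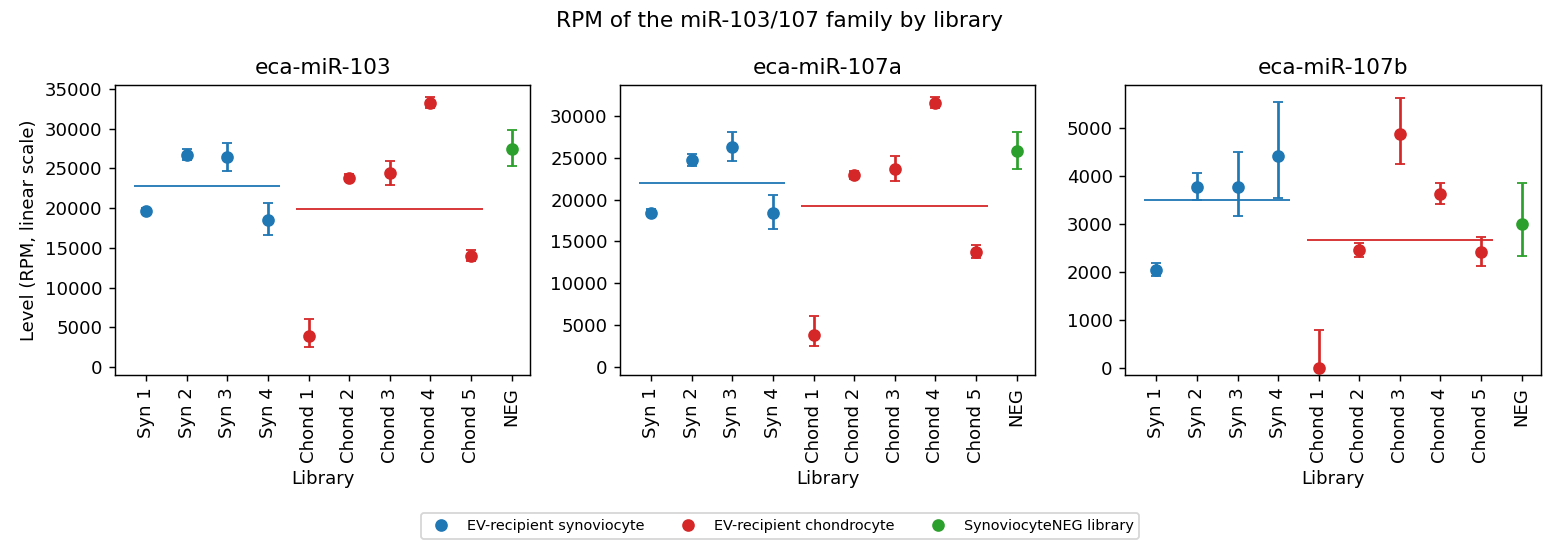
RPM (linear scale) of eca-miR-103, eca-miR-107a and eca-miR-107b in the 4 EV-recipient synoviocyte, 5 EV-recipient chondrocyte and 1 SynoviocyteNEG library, with 95% Wilson intervals as error bars and the group means as lines. The groups overlap for all 3 rows, and EV-recipient chondrocyte replicate 1 is the lowest point in each panel, at 3883 RPM for eca-miR-103.

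eca-miR-107a had the same pattern. It averaged 21964 ± 4122 RPM in EV-recipient synoviocytes (SD, n = 4) and 19179 ± 10622 RPM in EV-recipient chondrocytes (SD, n = 5), beside 22825 ± 4375 and 19881 ± 11247 RPM for eca-miR-103 in the same groups. Within libraries the order was eca-miR-103, eca-miR-107a and eca-miR-107b in 9 of 10, with the first 2 tied in the shallowest. eca-miR-107b was at 2041, 3776, 3781 and 4431 RPM in EV-recipient synoviocytes. It was at 0, 2457, 4888, 3634 and 2414 RPM in EV-recipient chondrocytes and at 3000 RPM in the SynoviocyteNEG library. Within EV-recipient synoviocytes the order of libraries was not that of eca-miR-103, since replicate 4 was the highest for eca-miR-107b and the lowest for eca-miR-103.

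All 3 rows passed the abundance filter of the study, under which 2 or more of the 9 labelled libraries had to reach 2045 RPM. At that filter 49 miRNAs were tested with edgeR's quasi-likelihood test, and 4 of them (8.16%) passed an adjusted p of 0.05 and 9 (18.4%) an unadjusted p of 0.05, 4 of them higher (8.16%) and 5 lower (10.2%) in EV-recipient synoviocytes. None of the 3 rows passed either threshold, in edgeR, DESeq2 or limma. Nor was any of them among the 8 of 49 miRNAs (16.3%) whose RPM did not overlap between groups. The log2 fold change of EV-recipient synoviocytes over EV-recipient chondrocytes was 0.31 for eca-miR-103 (standard error 0.44, adjusted p = 0.648), with a 95% interval of -0.64 to 1.27. It was 0.31 for eca-miR-107a (standard error 0.43, adjusted p = 0.648) and 0.43 for eca-miR-107b (standard error 0.60, adjusted p = 0.648, interval -0.86 to 1.72). The median over all tested miRNAs was 0.06, and 19 of the 49 had a smaller fold change in size than eca-miR-103. As the rows may share reads, they are not separate evidence. When the family was counted once, by the highest row in each library, the log2 fold change was 0.29 (standard error 0.45, adjusted p = 0.716, interval -0.68 to 1.26), and with the 3 rows summed it was 0.32. Each interval spans changes in both directions.

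The fold change of eca-miR-103 moved furthest when the shallowest library was left out. Without EV-recipient chondrocyte replicate 4 it moved the other way, to 0.53 (standard error 0.46). Leaving out the shallowest library also let 81 miRNAs be tested in place of 49. Without EV-recipient chondrocyte replicate 1 the edgeR log2 fold change was 0.01 for eca-miR-103 (standard error 0.27), 0.01 for eca-miR-107a (standard error 0.26), 0.14 for eca-miR-107b (standard error 0.33) and 0.00 for the family counted once (standard error 0.27). Compared as RPM, eca-miR-103 was higher in EV-recipient synoviocytes by 2945 RPM on average, within the spread between libraries (exact permutation test over 126 splits, two-sided, p = 0.667, adjusted p = 0.667 over the 2 tests). Without that replicate the difference in means was -1055 RPM (exact permutation p = 0.83), with EV-recipient chondrocytes at 23880 ± 7875 RPM (SD, n = 4).

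**Figure D3:**
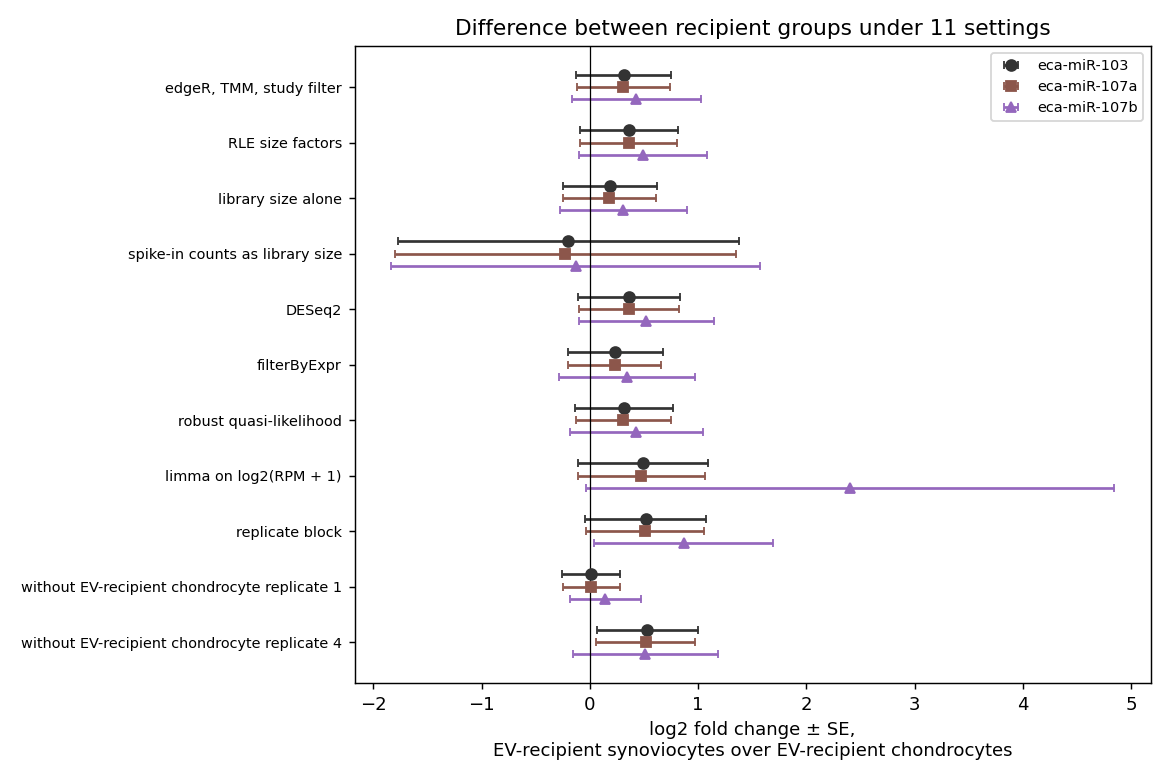
The log2 fold change of EV-recipient synoviocytes over EV-recipient chondrocytes (x axis, with standard errors as bars) for the 3 rows under 11 settings (y axis). The points for eca-miR-103 and eca-miR-107a nearly coincide, lie near 0 without EV-recipient chondrocyte replicate 1 and are negative with spike-in counts as library size.

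Spike-in calibrators, synthetic RNAs added in equal volume to each sample before library preparation, scale the family without reference to other miRNAs. As they were added after capture, they do not follow EV uptake, RNA extraction or capture. Per 1000 spike-in counts, eca-miR-103 had 49.0, 25.1, 6.32 and 1.17 counts in EV-recipient synoviocytes. It had 0.0521, 56.1, 7.57, 47.9 and 5.38 counts in EV-recipient chondrocytes and 2.16 in the SynoviocyteNEG library. On this scale the EV-recipient synoviocytes spanned 41.8 times and the EV-recipient chondrocytes 1077 times (10.4 times without replicate 1), against 1.45 and 8.57 times in RPM. The SynoviocyteNEG library thus lay above EV-recipient synoviocyte replicate 4 and below the other 3 EV-recipient synoviocyte libraries. With a lone library of its kind, this has no replicate check.

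The family shares a motif at the 5′ end with the miR-15/16 group, known in human cells for repressing cyclins and the survival protein BCL2. Of 8 listed members of that group, 7 are in the table and 1, eca-miR-16, was abundant enough to be tested. It averaged 17662 ± 3649 RPM in EV-recipient synoviocytes (SD, n = 4) and 19814 ± 2978 RPM in EV-recipient chondrocytes (SD, n = 5). Its fold change on the log2 scale was -0.01, with a standard error of 0.23 and an adjusted p of 0.990 in edgeR's quasi-likelihood test. The other 6 were eca-miR-15a, eca-miR-15b, the neighbours eca-miR-195 and eca-miR-497, and the neighbours eca-miR-424 and eca-miR-503. Together they summed to between 466 and 3183 RPM in EV-recipient synoviocytes and between 1226 and 3936 RPM in EV-recipient chondrocytes, led by eca-miR-15a and eca-miR-497. eca-miR-424 had 0 counts in EV-recipient synoviocytes and 11 counts in 1 EV-recipient chondrocyte library.

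The ratio of eca-miR-103 to eca-miR-16 within a library is free of library size and of the total of other miRNAs. It was 0.984, 1.29, 1.52 and 1.47 in EV-recipient synoviocytes. In EV-recipient chondrocytes it was 0.167, 1.39, 1.42, 1.77 and 0.618, and in the SynoviocyteNEG library 1.38. EV-recipient chondrocyte replicates 1 and 5, with exact 95% intervals of 0.0968 to 0.272 and 0.577 to 0.661, were the 2 lowest libraries, below every EV-recipient synoviocyte library, and the other 3 of their group lay within or above the EV-recipient synoviocyte range. eca-miR-16 itself was highest in these 2 libraries, at 23299 and 22676 RPM. The low eca-miR-103 value of replicate 1 was thus not shared by eca-miR-16, which had 114 counts there. Some other miRNAs were low in that library too, such as eca-miR-99a at 4905 RPM and eca-miR-125b-5p at 8992 RPM. Their means in EV-recipient chondrocytes were 27868 and 15943 RPM. Others were not low, such as eca-miR-100 at 92172 RPM beside a mean of 68706 RPM.

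**Figure D4:**
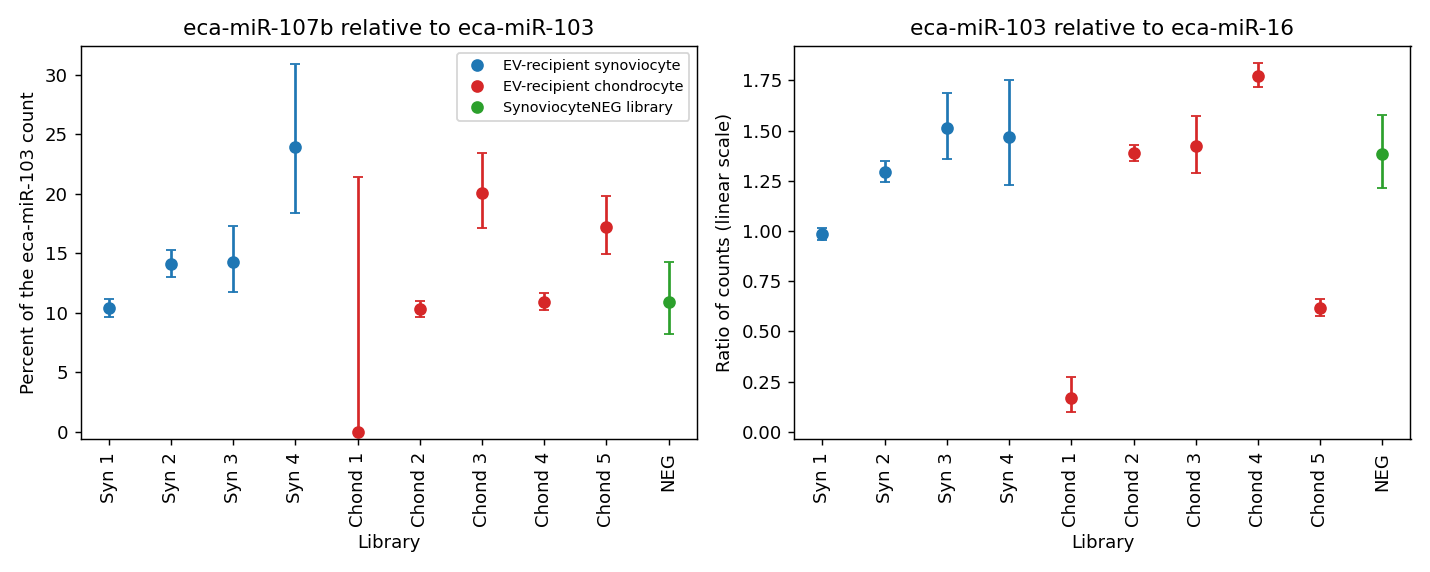
Left, eca-miR-107b as a percent of the eca-miR-103 count. Right, the ratio of eca-miR-103 to eca-miR-16 counts (linear scale). Points are libraries and bars are exact 95% intervals that treat the 2 rows as independent counts; EV-recipient chondrocyte replicates 1 and 5 are lowest on the right, at 0.167 and 0.618.

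Other miRNAs were ranked by how evenly they ran beside eca-miR-103 over the 10 libraries, using the SD of the log2 ratio of RPM + 1. For eca-miR-107a this SD was 0.04, against a median of 1.30 over the 1176 pairs of tested miRNAs. For eca-miR-107b it was 2.91, and 0.45 without EV-recipient chondrocyte replicate 1, where it had no count; the median over pairs was then 0.84. Outside the family, eca-miR-125b-5p ran most evenly with eca-miR-103, with an SD of 0.59, followed by eca-miR-25 with 0.72 and eca-let-7a with 0.75. This order rested on EV-recipient chondrocyte replicate 1. Without it the SDs of these 3 were 0.37, 0.51 and 0.56, and eca-miR-125a-5p at 0.31 and eca-miR-93 at 0.34, both named after their values were seen, ran more evenly with eca-miR-103 than any of them. eca-miR-125b-5p averaged 18824 ± 2237 RPM in EV-recipient synoviocytes (SD, n = 4) and 15943 ± 5961 RPM in EV-recipient chondrocytes (SD, n = 5). The points share libraries and depth, and the ranking is a description.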

How the data were processed

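Per the file headers and the study's methods, the authors deposited 2 tables over 10 libraries, of raw read counts and of RPM, each with 239 miRNAs. Both also hold 8 rows marked with #, taken as the spike-in calibrators the methods describe. The authors trimmed reads with cutadapt 3.3 to at least 17 nt and mapped them with Bowtie 1.3.0 and miRDeep2 to EquCab 3.0 (2 mismatches) and to horse miRBase entries (1 mismatch). How reads that match several entries were counted is not given in the sources used here. Dividing deposited counts by the library's summed miRNA count gave the deposited RPM within 0.0472%.

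Counts of the 9 labelled libraries (4 EV-recipient synoviocyte, 5 EV-recipient chondrocyte) were tested with edgeR 4.0.16 (quasi-likelihood, TMM) in R 4.3.3 after the study's filter, at least 2 libraries at 2045 RPM or more, which is what 10 counts are worth in the shallowest library. P-values were adjusted by Benjamini-Hochberg over the 49 tested miRNAs, at a threshold of 0.05. The standard error is the fold change over the square root of F. The fit was tested on simulated counts. Exact permutation tests and intervals (95%) used Python 3.11.15 and scipy 1.17.1. DESeq2 1.42.0, limma 3.58.1 on log2(RPM + 1) and log2(RPM + 10), other scalings and filters, a replicate block and leaving out each library were alternatives. No replicate pair looked like a library deposited more than once, the smallest chi-square per degree of freedom being 9.52. Separate horses underlie the replicates, while the EVs were pooled. The members, the miR-15/16 list, the marker lists and the rule for the 3 most parallel miRNAs were chosen with earlier results of these data known. The SynoviocyteNEG library, which the sample labels do not place, entered no test. eca-miR-497b, a listed member of the miR-15/16 group, has no row among the 239.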

Additional observations from a re-analysis of the deposited data

Results flagged for a closer look

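The SynoviocyteNEG library, which entered no comparison, held the family above the floor of 3 counts. eca-miR-103 had 558 counts there, eca-miR-107a 524 and eca-miR-107b 61, and the RPM of each lay within the range of the labelled libraries. The study's figure legend and the group entry in the tables mark it as the control culture, and the sample labels do not. No library stood apart from its own group by Dixon's criterion in 16 sets of values (RPM of the 3 rows and of eca-miR-16, the proportion of eca-miR-107b, the gap between the other rows, the ratio to eca-miR-16 and the value per spike-in count, in each group). With 4 and 5 libraries in the groups, the criterion can flag only a library very far from the rest. Its silence therefore says little, also for EV-recipient chondrocyte replicate 1.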

How the results depend on the processing

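The 3 rows and the family counted once stayed short of an adjusted p of 0.05 in each of the 21 alternatives run for each, with adjusted p between 0.481 and 0.997, and kept a positive log2 fold change in 20. With spike-in counts as library size it was negative, at -0.20 for eca-miR-103, -0.23 for eca-miR-107a, -0.13 for eca-miR-107b and -0.20 for the family counted once, with standard errors of 1.56 to 1.71. Leaving out each library in turn gave 0.01 to 0.53 for eca-miR-103, 0.01 to 0.52 for eca-miR-107a, 0.14 to 0.71 for eca-miR-107b and 0.00 to 0.51 for the family, lowest without EV-recipient chondrocyte replicate 1. It gave a difference in mean RPM of -1055 to 6293 and a log2 ratio difference of 0.09 to 0.84. In limma, eca-miR-107b reached 2.40 at a pseudocount of 1 RPM and 1.74 at 10 RPM, where the 0 in that replicate depends on the pseudocount. Replicate numbers do not pair the libraries (correlations of deviations -0.17, 0.05, -0.38 and -0.0048), and with the replicate block the values were 0.51, 0.51, 0.87 and 0.47. Of the tested miRNAs, 4 of 49 at an adjusted p under 0.05 became 14 of 239 with no filter. They became 1 with either limma fit, 1 with the replicate block and 0 with spike-in library sizes in edgeR (also 0 unadjusted). Leaving out each library gave 1 to 8, 8 being without EV-recipient chondrocyte replicate 1. There the lower RPM minimum also let 81 miRNAs be tested in place of 49. The 9 of 49 at an unadjusted p under 0.05 became 44 of 239 with no filter and 17 of 100 with filterByExpr. They became 7 to 18 without each library, 18 being of the 81 tested without EV-recipient chondrocyte replicate 1. Counts over different numbers of tested miRNAs are not on the same base. The cause of these moves was not tested. Depth limits the shallowest library most, where eca-miR-103 rests on 19 counts.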
